A study of Homo sapiens with 3 samples.

Results

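The genes described here are 7 genes of cellular zinc handling: the metallothionein genes MT2A and MT1X, the metal-sensing transcription factor gene MTF1, the zinc exporter genes SLC30A1 and SLC30A5, and the zinc importer genes SLC39A6 and SLC39A10. They were chosen by symbol, and all 7 were found among the 16793 gene symbols of the series. All 7 also passed the filter on low values, an average of 1 FPKM or more across the libraries, which left 11512 genes for comparison. FPKM is the number of sequenced fragments scaled to transcript length and to library size, so levels can be compared roughly between genes. That comparison is less sure for genes that share much sequence with others, as MT1X does.

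The cells were H446, an established human small cell lung cancer line. They were grown for 48 h with vehicle, with 5 µM 3-bromoascochlorin (BAS) or with 10 µM BAS, a brominated relative of the fungal metabolite ascochlorin, and total RNA was sequenced. The study's title names antitumor effects and the MAPK pathway, and does not name zinc. Each group is a single library (3 in total). Differences are therefore described without replicates, errors or tests.

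Metallothioneins are small cysteine-rich proteins that bind zinc, copper and cadmium. When free zinc in the cytosol is high, MTF1 binds metal response elements in DNA and switches on metallothionein genes and SLC30A1, whose product pumps zinc out of the cell. Proteins of the SLC30 (ZnT) family move zinc out of the cytosol, across the plasma membrane or into organelles, and those of the SLC39 (ZIP) family move it into the cytosol. Metallothionein genes also respond to glucocorticoids and oxidative stress.

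The promoters of 3 members are shown because their genes were the members with the highest BAS values relative to vehicle. The letters are the 250 bases before the gene start in RefSeq on GRCh38.p14, read 5′ to 3′ on the gene's strand, and capitals mark matches to the metal response element core, searched on both strands as TGCACNC and TGCGCNC, which cannot both match at one position of a strand. MT2A lies at chr16:56608334-56608583 on the plus strand, MT1X at chr16:56682220-56682469 on the plus strand and SLC30A1 at chr1:211579162-211579411 on the minus strand.
MT2A: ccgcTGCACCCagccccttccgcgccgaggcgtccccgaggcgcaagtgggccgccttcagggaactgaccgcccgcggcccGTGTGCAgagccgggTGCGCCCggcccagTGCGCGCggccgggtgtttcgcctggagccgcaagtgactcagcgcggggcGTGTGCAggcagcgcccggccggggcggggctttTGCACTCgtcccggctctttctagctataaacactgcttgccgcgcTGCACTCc
MT1X: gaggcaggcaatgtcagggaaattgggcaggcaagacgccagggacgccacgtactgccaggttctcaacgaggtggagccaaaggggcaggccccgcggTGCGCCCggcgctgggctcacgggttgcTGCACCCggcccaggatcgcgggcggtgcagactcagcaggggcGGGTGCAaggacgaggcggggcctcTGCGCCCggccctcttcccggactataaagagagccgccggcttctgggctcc
SLC30A1: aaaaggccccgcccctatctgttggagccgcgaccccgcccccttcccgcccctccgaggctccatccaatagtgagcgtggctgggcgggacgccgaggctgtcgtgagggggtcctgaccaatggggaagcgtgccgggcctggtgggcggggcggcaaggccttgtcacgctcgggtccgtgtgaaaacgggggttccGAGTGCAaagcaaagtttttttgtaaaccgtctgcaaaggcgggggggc

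The MT2A stretch holds 7 matches, the MT1X stretch 4 and the SLC30A1 stretch 1. Among 35116 RefSeq promoters of the same length, 24.8% hold at least 1 match, 0.37% at least 4 and 0.0313% at least 7. The first 50 transcribed bases hold a further match in MT2A, in SLC30A1 and at the second listed start of SLC39A10. The promoter of SLC39A6 has 1 match before the start, those of MTF1 and SLC30A5 have 0, and both listed starts of SLC39A10 have 0 before the start. A match is only a match of letters, and binding was not measured.

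**Figure D1:**
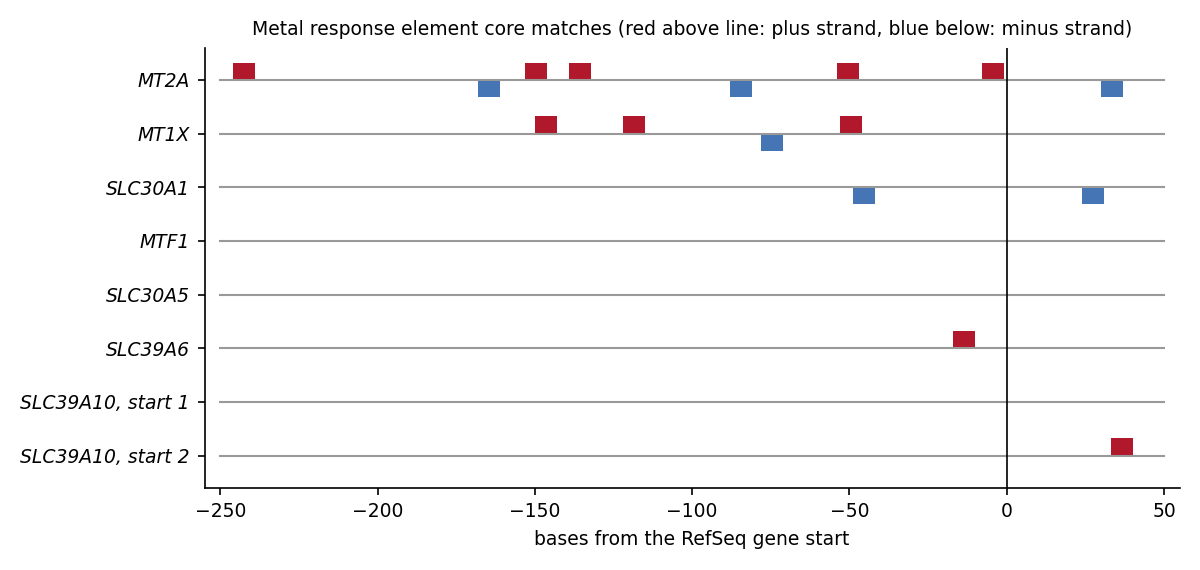
Position of each metal response element core match, in bases from the RefSeq gene start (vertical line), in the promoters of the 7 genes; red boxes above a line are plus strand matches and blue boxes below are minus strand matches, relative to the gene. MT2A has 7 matches before its start and MT1X 4, and each other promoter has 1 or 0 there.

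The metallothioneins were the members furthest above vehicle. MT2A, a widely expressed metallothionein gene, had 20.01 FPKM in the vehicle library, 35.38 FPKM at 5 µM and 57.26 FPKM at 10 µM. Its level was thus higher in each library of the dose order, 1.77-fold over vehicle at 5 µM and 2.86-fold at 10 µM. In bulk RNA, more expressing cells and more RNA per cell cannot be told apart. MT1X, an isoform gene of the same cluster, had 12.70 FPKM in the vehicle library, 26.37 FPKM at 5 µM and 29.82 FPKM at 10 µM. MT1X was 2.08-fold over vehicle at 5 µM and 2.35-fold at 10 µM, so that most of its distance from vehicle was already present at the lower dose.

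On the log2(FPKM + 1) scale used for all comparisons, the MT2A difference from vehicle was 0.79 at 5 µM and 1.47 at 10 µM. Among the 11512 genes, that placed MT2A at rank 130 from the highest at 5 µM and rank 41 at 10 µM. The MT1X differences were 0.998 and 1.17, at ranks 63 and 85. Of the 10 µM difference on this scale, 53.8% was present at 5 µM for MT2A and 85.4% for MT1X. Between the doses MT2A differed by 0.68, rank 32 of all genes, and MT1X by 0.17, rank 2025. The ratio of MT2A to MT1X was 1.58 with vehicle, 1.34 at 5 µM and 1.92 at 10 µM. With 1 library per dose, whether the pair truly differ in dose response could not be tested.

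**Figure D2:**
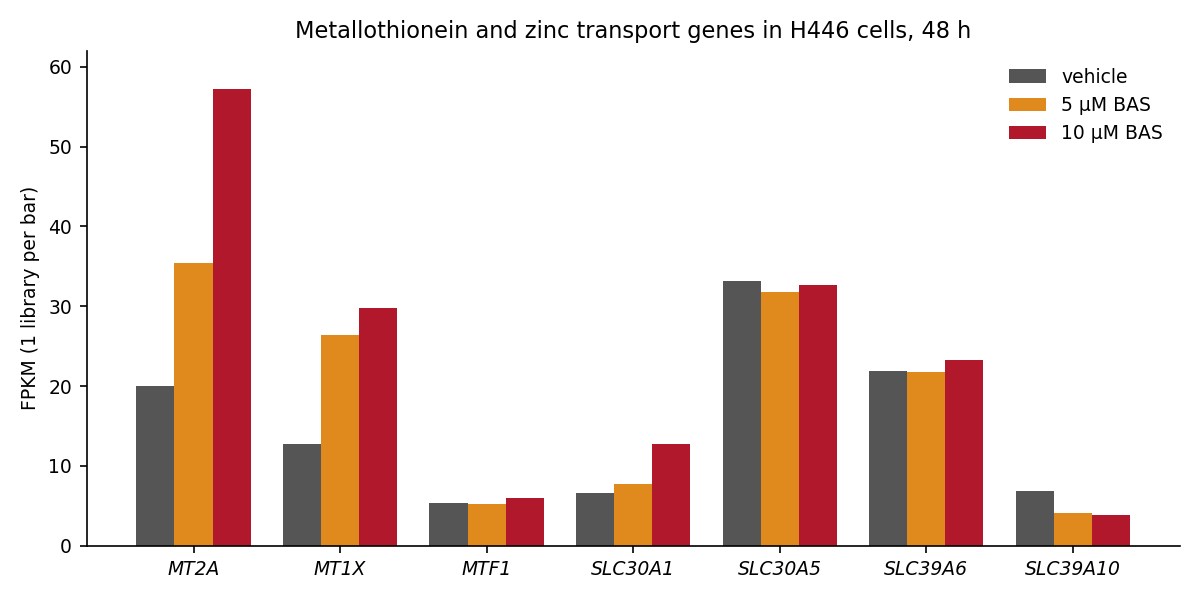
FPKM of each of the 7 genes (1 bar per library, no error bar because each group is 1 library). MT2A stands at 20.01, 35.38 and 57.26 FPKM and MT1X at 12.70, 26.37 and 29.82 FPKM in the order vehicle, 5 µM and 10 µM, while SLC30A5 stays between 31.79 and 33.10 FPKM.

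Only 2 other metallothionein genes are listed in the files, and both were near 0. MT1E was at 0.42 FPKM with vehicle, listed at 0 at 5 µM and at 0.09 FPKM at 10 µM. MT1H was listed at 0 with vehicle and at 10 µM and at 0.14 FPKM at 5 µM, although its promoter holds 8 core matches, a count reached by 0.0171% of promoters. The metallothionein RNA listed was therefore almost wholly that of MT2A and MT1X: the 4 genes summed to 33.13, 61.89 and 87.17 FPKM in the order vehicle, 5 µM and 10 µM. The other 8 of the 12 genes on the metallothionein list were not analysed here.

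All 12 lie in one cluster on chromosome 16, with 0 other protein-coding genes between them in the RefSeq annotation. The measured genes on either side, looked up after the member values were known, were much closer to vehicle. OGFOD1, a ribosomal protein hydroxylase gene, was at 27.62, 34.01 and 39.02 FPKM in the order vehicle, 5 µM and 10 µM. BBS2, a gene of the ciliary BBSome, was at 3.38, 4.68 and 4.15 FPKM, and the nuclear pore gene NUP93 at 27.02, 28.69 and 26.89 FPKM. Their log2 differences at 10 µM were 0.48, 0.23 and −0.01, against 1.47 for MT2A and 1.17 for MT1X. SLC12A3, a salt transporter gene, was at or below 0.03 FPKM in each library.

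Metallothionein genes are near copies of each other, and reads of 50 bases can be ambiguous among them. In GENCODE 29, 4.88% of the 50-base sequences of the longest MT2A transcript occur in another gene, most often the pseudogene MT2P1. MT1G and MT1X are also among the 5 genes that hold some of them. For the longest MT1X transcript the share was 55.8%, all of it with AC026461.1, a transcript that overlaps MT1X. Other MT1X transcripts were not counted in that share, and the search did not tell the strands apart. The MT1X value can therefore include reads of the AC026461.1 locus, or lack reads given to it, and this was not tested. The shares were 0.896% for MTF1 and 7.96% for SLC30A5, the latter with the gene AC010273.1, and 0% for SLC30A1, SLC39A6 and SLC39A10.

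The RNA of the zinc sensor itself was close to vehicle. MTF1 had 5.32 FPKM in the vehicle library, 5.16 FPKM at 5 µM and 5.96 FPKM at 10 µM. Its log2 difference was −0.04 at 5 µM and 0.14 at 10 µM, both inside the interquartile range of all genes, from −0.14 to 0.18 at 5 µM and from −0.15 to 0.25 at 10 µM. MTF1 works through its zinc-dependent entry into the nucleus and DNA binding, which RNA levels do not measure.

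Among the exporters, SLC30A1 was higher with BAS and SLC30A5 was not. SLC30A1 (ZnT1), the plasma membrane zinc exporter, had 6.62 FPKM in the vehicle library, 7.67 FPKM at 5 µM and 12.76 FPKM at 10 µM. The 10 µM library stands apart from the other two, at 1.93-fold over vehicle and 1.66-fold over 5 µM. On the log2 scale the difference from vehicle was 0.19 at 5 µM, rank 2842, and 0.85 at 10 µM, rank 239. Between the doses it was 0.67, rank 34 from the highest and next to MT2A at rank 32. Only 21.8% of the 10 µM difference of SLC30A1 was present at 5 µM, the lowest share of the 4 members that lay furthest from vehicle. SLC30A5 (ZnT5), which loads zinc into the early secretory pathway as a pair with SLC30A6, was at 33.10, 31.79 and 32.64 FPKM, with log2 differences of −0.06 and −0.02.

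Among the importers, SLC39A10 was lower with BAS and SLC39A6 was not. SLC39A10 (ZIP10), a plasma membrane importer whose gene zinc represses through MTF1 in other systems, had 6.86 FPKM in the vehicle library, 4.07 FPKM at 5 µM and 3.85 FPKM at 10 µM. Both treated libraries were below vehicle and close to each other, at 0.593 and 0.561 times vehicle. The log2 differences were −0.63, rank 133 from the lowest, and −0.70, rank 250 from the lowest, so that 90.8% of the 10 µM difference was present at 5 µM. SLC39A6 (ZIP6, or LIV-1), which forms a complex with SLC39A10, was at 21.91, 21.77 and 23.30 FPKM, with log2 differences of −0.01 and 0.08. The ratio of SLC39A6 to SLC39A10 was 3.19 with vehicle, 5.35 at 5 µM and 6.05 at 10 µM.

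By the rule of size, an absolute log2 difference of at least 1 (2-fold), 0 of the 7 members were past the limit at 5 µM, where 0.747% of all genes were. MT1X lay just under it at 0.998 and was past it with a pseudocount of 0.5 or 0.1. At 10 µM MT2A and MT1X were past it, both higher, against 1.95% of all genes in either direction and 1.31% as higher. Between the doses 0 members were past it, against 0.0869% of all genes. At a 1.5-fold limit the counts were 3 members at 5 µM (4.6% of all genes), 4 at 10 µM (9.48%) and 2 between the doses (0.843%). Those at 10 µM were MT2A, MT1X and SLC30A1, higher, and SLC39A10, lower. Both doses are set against the same vehicle library, so an error in that library moves both. The members were chosen with these results known, and the counts support nothing about zinc genes as a class.

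**Figure D3:**
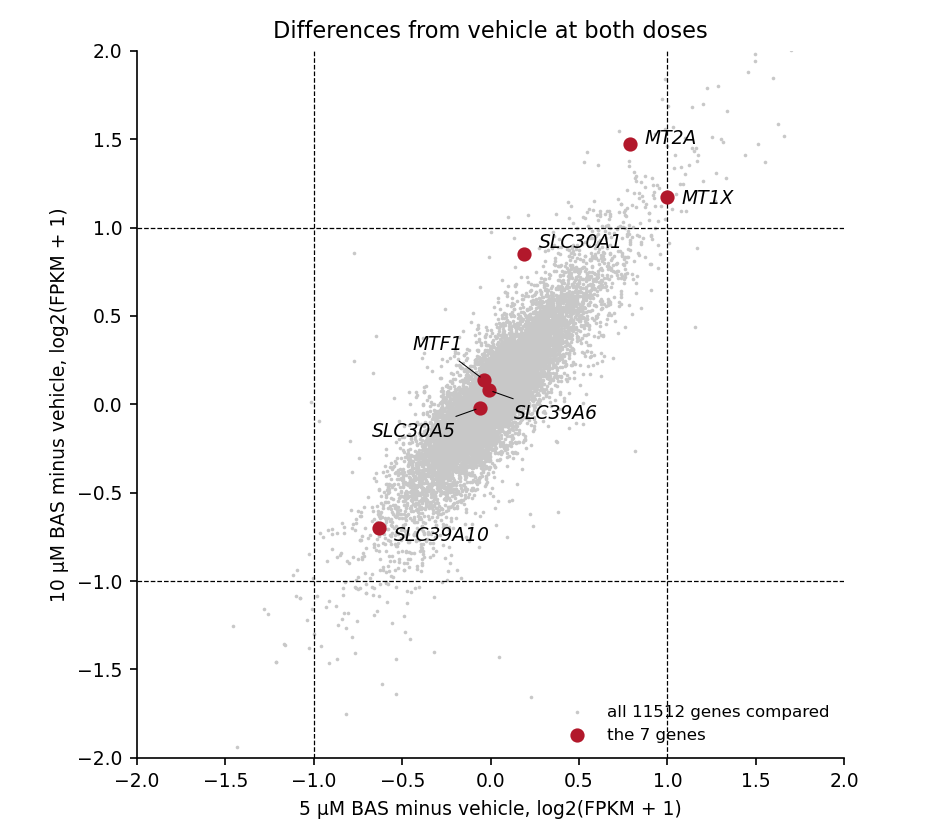
Difference from vehicle in log2(FPKM + 1) at 5 µM (horizontal) and 10 µM (vertical) for the 11512 genes compared (grey) and the 7 genes (red), with dashed lines at the 2-fold limit; 23 genes lie outside the axes, and both axes use the same vehicle library. SLC30A1 (0.19 and 0.85) lies above the main cloud, MT2A and MT1X lie at its upper end, SLC39A10 at its lower end, and MTF1, SLC30A5 and SLC39A6 near its centre.

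The order of the levels also differed between libraries. With vehicle it ran SLC30A5, SLC39A6, MT2A, MT1X, SLC39A10, SLC30A1 and MTF1 from the highest to the lowest. In both treated libraries MT2A came first, ahead of SLC30A5, MT1X and SLC39A6, and SLC39A10 came last, below MTF1. The vehicle levels of SLC39A10 (6.86 FPKM) and SLC30A1 (6.62 FPKM) are near neighbours, and so are SLC30A5 (31.79 FPKM) and MT2A (35.38 FPKM) at 5 µM; without replicates these neighbours cannot be told apart.

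The transporter families as a whole were centred near vehicle. Of 10 SLC30 genes 5 passed the filter, and of 14 SLC39 genes 11 did. Of these 16, 0 were past 2-fold at either dose, where 0.747% of all genes were at 5 µM and 1.95% at 10 µM. At 5 µM 7 were above and 9 below vehicle, and at 10 µM 9 were above and 7 below. Of all genes, 53.2% and 56.5% were above vehicle. The median log2 difference of the 16 was −0.01 at 5 µM and 0.06 at 10 µM, beside 0.02 and 0.05 for all genes. SLC39A10 was past the 1.5-fold limit at 5 µM, as were 4.6% of all genes. At 10 µM SLC30A1 and SLC39A10 were past it, as were 9.48% of all genes. Of the 12 others, 0 were past it at either dose. The members were chosen with these results known, so the count among the 12 says nothing about the families. Summed over each family, the exporters were at 80.73, 77.73 and 85.44 FPKM and the importers at 271.47, 270.68 and 278.81 FPKM.

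Within the exporters, SLC30A6 (ZnT6), the partner of SLC30A5, was at 14.87, 16.51 and 18.85 FPKM. SLC30A7 (ZnT7), a Golgi transporter, was at 6.61, 6.57 and 5.47 FPKM, and SLC30A9, a mitochondrial transporter, at 18.32, 13.57 and 13.61 FPKM. The early secretory exporters were thus on both sides of vehicle at 10 µM, at 0.32 for SLC30A6, −0.23 for SLC30A7 and −0.02 for SLC30A5. SLC30A3 (0.70, 0.87 and 1.13 FPKM) and SLC30A4 (0.39, 0.59 and 0.78 FPKM), vesicle transporters, were under the filter. SLC30A2, SLC30A8 and SLC30A10 were at or below 0.11 FPKM in each library.

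Within the importers, the highest was SLC39A7 (ZIP7), which releases zinc from the endoplasmic reticulum, at 50.54, 51.61 and 48.93 FPKM. SLC39A1 (ZIP1), a plasma membrane importer, was at 47.87, 37.77 and 34.92 FPKM and its close relative SLC39A3 (ZIP3) at 28.98, 38.98 and 41.16 FPKM. These relatives lay on opposite sides of vehicle, at −0.44 and 0.49 at 10 µM. SLC39A1 shares 71.3% of its 50-base sequences with the overlapping gene AL358472.7 and is uncertain for that reason. SLC39A14 (ZIP14) and SLC39A8 (ZIP8), which also carry iron and manganese, had 28.31, 32.63 and 36.93 FPKM and 34.50, 33.31 and 39.53 FPKM, respectively. The Golgi importer SLC39A9 was at 22.27, 18.45 and 15.83 FPKM. SLC39A13 was at 6.45, 8.17 and 8.29 FPKM, SLC39A4 at 18.73, 18.44 and 20.87 FPKM and SLC39A11 at 4.91, 5.29 and 5.03 FPKM. SLC39A2, SLC39A5 and SLC39A12 were at or below 0.11 FPKM.

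**Figure D4:**
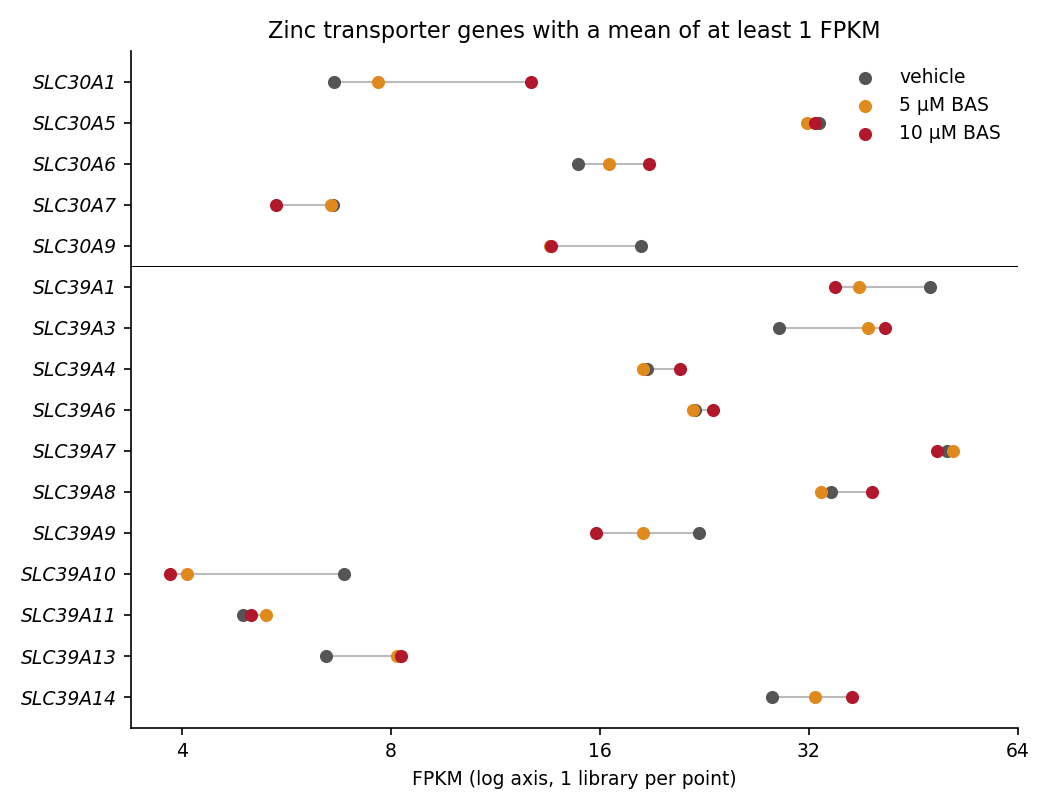
FPKM (log axis) of the 5 SLC30 genes (above the line) and 11 SLC39 genes (below it) that average 1 FPKM or more, 1 point per library. SLC30A1 spans 6.62 to 12.76 FPKM with 10 µM highest, SLC39A10 spans 3.85 to 6.86 FPKM with vehicle highest, and SLC30A5 and SLC39A6 points lie close together.

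Other lists give the setting of these values. Of all 11512 genes, 53.2% were above vehicle at 5 µM and 56.5% at 10 µM. Their median differences were 0.02 and 0.05, and 0.747% and 1.95% were past 2-fold. Of 11 heavy metal and oxidative stress genes past the filter, 9 were above vehicle at 10 µM, 1 of them (NQO1) past 2-fold, with a median of 0.38. At 10 µM 5 of the 11 were past 1.5-fold, all higher, as were 9.48% of all genes in either direction. NQO1, a quinone reductase gene, was at 5.07, 8.59 and 11.23 FPKM, and HMOX1, the heme oxygenase gene that cadmium and heme induce, at 3.79, 5.51 and 6.38 FPKM. TXNRD1, a thioredoxin reductase gene, was at 31.04, 34.21 and 49.85 FPKM, with most of its distance at 10 µM, and the heat shock gene HSPA1B at 62.77, 89.57 and 98.30 FPKM. These 4 had the largest log2 differences of the list at 10 µM. There HSPA1A (0.28) and DNAJB1 (0.17) were nearer vehicle, and the 2 genes below it were BAG3 (−0.16) and SLC7A11 (−0.04). With median-ratio scaling or quantile normalization 0 genes of that list were past 2-fold. Of 11 glucocorticoid-responsive genes, 10 were above vehicle at each dose and 2 past 2-fold at 10 µM, with medians of 0.30 and 0.32, and 5 were past 1.5-fold at 10 µM, where 9.48% of all genes were. Those past 2-fold were TSC22D3 (GILZ), at 14.04, 41.95 and 40.66 FPKM, and ERRFI1, an inhibitor of EGFR, at 18.53, 39.00 and 56.97 FPKM. DUSP1, a MAP kinase phosphatase gene, was at 9.05, 12.96 and 17.11 FPKM, and the transcription factor gene CEBPD at 5.89, 8.43 and 10.55 FPKM. These 4 had the largest log2 differences of that list at 10 µM. There FKBP5 (0.24), NFKBIA (0.06) and SGK1 (0.02) were nearer vehicle, and the 1 gene below it was NR3C1 (−0.27), the glucocorticoid receptor gene.

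Of 11 copper handling genes past the filter, 7 were above vehicle at 5 µM and 6 at 10 µM. Median differences were 0.13 and 0.15 for this list. At either dose 0 were past the 1.5-fold limit on the log2(FPKM + 1) scale, where 4.6% of all genes were at 5 µM and 9.48% at 10 µM. SCO2 lay just under it at 5 µM, at 0.57, with a plain ratio of 1.56. CCS, the copper chaperone of superoxide dismutase, was at 6.89, 9.65 and 9.69 FPKM, and SLC31A2, a copper transporter of endosomes, at 4.31, 3.71 and 2.98 FPKM. ATP7A and ATP7B, the copper exporting pumps, had 2.69, 2.21 and 2.52 FPKM and 1.13, 1.15 and 0.94 FPKM, respectively.

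The list of metal-responsive transcription and zinc chaperone genes had a median of −0.12 at 5 µM and −0.31 at 10 µM over 7 genes. It holds 5 CBWD genes, near-identical copies of a family of zinc chaperones, whose reads the authors' counting could split between copies. CBWD3 was at 12.19, 6.09 and 6.93 FPKM and CBWD2 at 12.74, 9.65 and 8.30 FPKM. CBWD1 (13.03, 13.25 and 9.96 FPKM) and CBWD5 (27.30, 24.64 and 21.89 FPKM) were also below vehicle at 10 µM. CBWD6 alone of the 5 was above it, at 5.71, 5.91 and 6.84 FPKM. METAP1, a methionine aminopeptidase gene whose product such chaperones supply with zinc, was at 42.11, 38.63 and 40.60 FPKM. Of 9 zinc-requiring secreted or surface enzymes past the filter 7 were above vehicle at each dose, with medians of 0.14 and 0.28. With no filter, the medians over all 17 measured genes of that list were −0.01 and 0.00. The matrix metalloprotease gene MMP14 was past 2-fold there, at 2.12, 4.20 and 5.26 FPKM, but not with any of the scalings between libraries. ADAM17 and ADAM10, sheddase genes, had 18.33, 21.45 and 23.84 FPKM and 29.34, 23.08 and 22.69 FPKM, respectively, on opposite sides of vehicle.

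**Figure D5:**
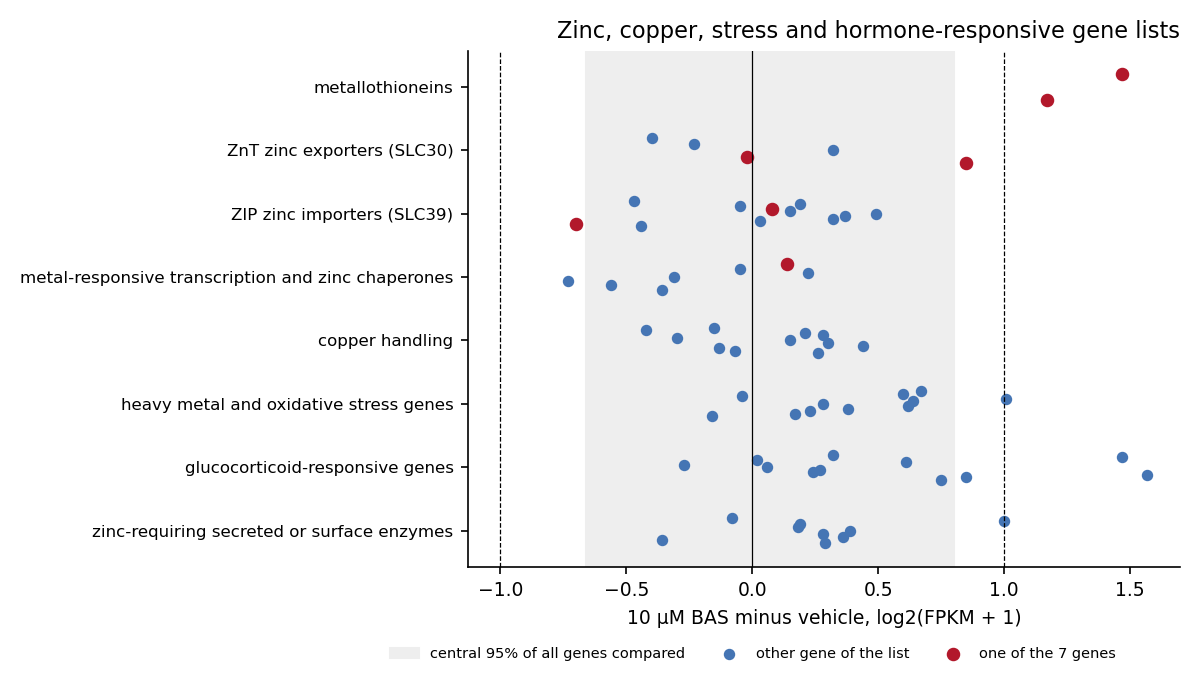
Difference from vehicle at 10 µM in log2(FPKM + 1) for each gene past the filter in the 8 lists (1 point per gene, red for the 7 genes), with the central 95% of all genes (−0.66 to 0.80) shaded and dashed lines at the 2-fold limit. MT2A and MT1X are the 2 points of the metallothionein list, at 1.47 and 1.17, and SLC30A1 (0.85) and SLC39A10 (−0.70) are the transporter genes outside the shaded range.

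Genes of like pattern were sought among 8728 genes (average of 5 FPKM or more), by the distance between their pairs of log2 differences from vehicle (5 and 10 µM), which rest on the same 3 libraries. Nearest to MT2A were ERFE, the erythroferrone gene of iron control, at 2.42, 5.27 and 7.37 FPKM, the mitochondrial carrier gene SLC25A35 at 3.69, 8.38 and 11.91 FPKM, and the matrix gene TNC at a distance of 0.212. Nearest to MT1X were the desaturase family gene FADS3 at a distance of 0.0144, SLC3A2, the shared heavy chain of amino acid transporters, at 55.21, 110.55 and 127.83 FPKM, and NDUFA4L2 at 2.45, 6.15 and 6.87 FPKM. Nearest to SLC30A1 were the transcription factor gene FOXD1 at 9.80, 12.08 and 18.96 FPKM, the hyaluronan receptor gene CD44 at 8.55, 10.82 and 15.02 FPKM, and the receptor gene NRP2 at 5.56, 6.61 and 9.58 FPKM. The closest neighbour of MT1X lay nearer (0.0144) than that of SLC30A1 (0.0961) or of MT2A (0.198).

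The libraries were alike in overall content. The values summed to between 487923 and 507342 FPKM, and 11425 to 11545 symbols were at or above 1 FPKM. The files used here give FPKM and no counts, which leaves the read depth unknown. Small cell lung cancer and neuroendocrine markers were present, 11 of 12 measured averaging 1 FPKM or more, with NEUROD1 at 104.96, 93.15 and 91.62 FPKM, and their sum was 441.39, 519.90 and 591.06 FPKM. Of 7 fibroblast markers 3 reached that average, the collagen genes COL1A1, COL1A2 and COL3A1, and the list summed to 751.82, 934.36 and 924.93 FPKM, while the defining markers DCN and LUM were at or below 0.31 FPKM. Leukocyte markers (4 of 7 measured) summed to 4.29, 7.16 and 8.56 FPKM, mostly CD68, endothelial markers (4 of 5) to 59.17, 57.39 and 53.66 FPKM, nearly all CDH5, and erythroid and hepatocyte markers (2 of 4 each) to at most 1.05 FPKM each. The fibroblast and leukocyte sums were higher in the treated libraries, as MT2A and MT1X were, and their part in the metallothionein values was not tested.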

How the data were processed

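RNA was sequenced from 3 libraries of H446 cells, 1 per group, as single-end reads of 50 bases, per the labels' protocols. The tools named in the submitters' processing notes are Cufflinks, Cuffdiff, Bowtie2, BWA and Trim Galore, and the build is hg19. For versions, roles, annotation, strand handling and scaling, nothing is given in the sources used here. The authors deposited FPKM with 2 decimals, per the file headers. Per the file headers, the treated columns are named with ASB85 (5 µM BAS in the labels) and ASB810 (10 µM BAS). That match could not be checked, and every dose statement rests on it.

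Duplicated symbols were summed, which touched none of the genes named. Differences were taken in log2(FPKM + 1) over 11512 genes averaging 1 FPKM or more, a scale that understates changes of low genes. Folds of single genes are plain FPKM ratios, while the fold limits apply to the log2(FPKM + 1) differences. With 1 library per group there was no test. The steps were tested on simulated data with changes planted in genes averaging 5 FPKM or more. That test concerns the calculation, and did not cover the 1.5-fold limit, low genes or the noise of single libraries. The 7 members, the 8 gene lists and the rules were chosen with earlier results of these data known. Named genes are the members, all measured metallothionein, SLC30 and SLC39 genes, up to 4 genes of each other list with the largest difference at 10 µM, and the 3 genes nearest in pattern to MT2A, MT1X and SLC30A1. OGFOD1, BBS2, NUP93, SLC12A3, ATP7A, ATP7B, SCO2, CBWD6, METAP1 and the cell markers named lie outside that rule. So do HSPA1A, DNAJB1, BAG3, SLC7A11, FKBP5, NFKBIA, SGK1 and NR3C1.

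Promoters came from RefSeq (GRCh38.p14), matched by symbol for all 7 members, and shared 50-base sequences from GENCODE 29 (GRCh38), both used without the authors' coordinates. The alternatives were pseudocounts of 0.1 and 0.5, no filter or one at 5 FPKM, 3 scalings, and limits of 1.5-fold and 4-fold; the plain-ratio limit, shared sequences, flanking genes and the chaperone list without CBWD genes were added after seeing the data. Python 3.11.15, numpy 2.4.6, pandas 2.3.3 and matplotlib 3.10.9 were used.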

Additional observations from a re-analysis of the deposited data

How the results depend on the processing

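The 7 members kept the sign of their differences from vehicle under the pseudocounts, filters and scalings tried, with SLC39A10 (mean 4.93 FPKM) left out by the filter at 5 FPKM. MT2A ranged from 1.42 to 1.52 at 10 µM, MT1X from 1.12 to 1.23, SLC30A1 from 0.80 to 0.95 and SLC39A10 from −0.83 to −0.70. At 5 µM 0 members were past the 2-fold limit as reported, and the count was 1 (MT1X) with a pseudocount of 0.1, with a pseudocount of 0.5 and with the limit set on the plain ratio, and 3 with a 1.5-fold limit. At 10 µM the count of 2 became 4 with the 1.5-fold limit and 0 with the 4-fold limit, and between the doses 0 became 2 with the 1.5-fold limit. The counts over the metallothionein, SLC30 and SLC39 lists together moved to the same values: 1 under both pseudocounts and the plain ratio and 3 at the 1.5-fold limit at 5 µM, and 4 and 0 at the 1.5-fold and 4-fold limits at 10 µM. The median of the SLC30 genes at 10 µM was −0.02 and 0.07 with no filter. Over all genes, a pseudocount of 0.1 raised the 2-fold counts at 10 µM from 151 higher and 74 lower to 273 and 145, and quantile normalization gave 127 and 93. No paired analysis was possible because each group has 1 library. Depth is unknown, so no counting error can be given for low genes such as MT1E and MT1H.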
